A study of Oncorhynchus mykiss with 3 samples.

Results

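miR-184 was examined in ovulated eggs of rainbow trout (Oncorhynchus mykiss), across every sequence that carries its family number. A name was taken as miR-184 when miR-184 or mir-184 stood in it as the family number in the table of known miRNAs, on either arm of the hairpin. This gave 3 of 575 known names, namely omy-miR-184-3p with 2 sequences, omy-mir-184-3p with 1 and omy-mir-184-2-5p with 1. The study counts 496 known miRNAs by its own numbers, and omy-miR-184-3p and omy-mir-184-3p share a study number. Both deposited tables together held 880 names. The predicted omy-miR-nov-184-3p was left out, because its number is a serial number of the study and not a family number. The names were selected on their family number alone, but the family itself was taken up with its number of reads in these tables known, so the reads and ranks below are descriptions with no test.

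Eggs had been held in the body cavity of commercial females for 1 day (D1PO), 7 days (D7PO) or 14 days (D14PO) after ovulation, and the labels give survival rates of 91.8%, 73.4% and below 50% for these ages. The study reports these same values as fertilization rates, judged by whether embryos had cleaved. Each age was 1 library of small RNA, made by pooling RNA over females, and age was the only difference named between the groups. The deposited tables list 1 number of reads per unique sequence and do not say from which library. All values below therefore describe the eggs of the 3 ages together and treat that number as a sum over them, which is an assumption. The reads of known miRNAs in the table exceed the total that the study gives for miRBase matches over all libraries, so the table may not be a plain sum of those matches. No level of miR-184 at a single age, no spread between females and no difference between ages can be given from these counts. Known miRNAs had 7684127 reads over 1059 sequences and predicted miRNAs 333447 reads over 359 sequences. Intervals are at 95%, exact Poisson for reads and Clopper-Pearson for shares, and cover counting error only. Abundance here means reads, and how closely reads of unlike sequences follow their amounts in the egg was not tested.

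A miRNA is cut from a hairpin RNA whose arms give a 5p and a 3p product, and mostly one of these is loaded into the silencing complex. Bases 2 to 8, the seed, pair with target mRNAs, so the seed largely sets which transcripts are bound. miR-184 is an old miRNA shared by insects and vertebrates. In Drosophila it is needed for egg production and early embryos, and in vertebrates it is known for high levels in the epithelium of the cornea and lens. In human keratinocytes it was described to counter miR-205, an epithelial miRNA.

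The 4 sequences are shown because they are all that was listed for the family, with the seed in capitals, 5′ to 3′, as the deposited table gives them.
omy-miR-184-3p, ending in C: uGGACGGAgaacugauaagggc
omy-miR-184-3p, ending in U: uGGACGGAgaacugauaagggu
omy-mir-184-3p: uACUCGCUccugguc
omy-mir-184-2-5p: cCUUAUCAcuuuuccagcccagc
Both forms of omy-miR-184-3p are 22 nt long, start at the same base and carry the same seed. They differ by C22U, counted from 1 at the 5′ end of the C-ending form. The sequence of omy-mir-184-3p is 15 nt and that of omy-mir-184-2-5p is 23 nt.

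By reads, omy-miR-184-3p was one of the abundant miRNAs of the eggs, and nearly all reads of the family came from its 2 forms. The C-ending form had 105511 reads (interval 104875 to 106150) and the U-ending form 74527 (73993 to 75064), together 180038 (179207 to 180872). The product of the opposite arm, omy-mir-184-2-5p, had 200 reads (173.2 to 229.7). The separately written omy-mir-184-3p had 92 reads (74.2 to 112.8). The 4 sequences summed to 180330 reads, of which the C-ending form held 58.5%, the U-ending form 41.3%, the 5p sequence 0.111% and the 15-nt sequence 0.0510%. The reads thus fell into an abundant pair and a rare pair, with intervals that did not overlap between any of the 4.

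**Figure D1:**
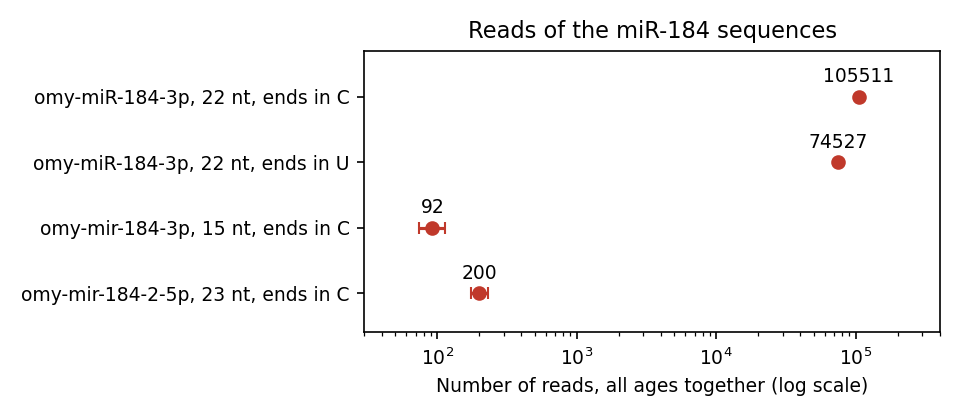
Number of reads of each miR-184 sequence over all ages together, on a log scale, with exact Poisson intervals at 95% as bars that are narrower than the points for both abundant forms. The C-ending form with 105511 reads and the U-ending form with 74527 stand far to the right of the 5p sequence with 200 and the 15-nt sequence with 92.

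omy-miR-184-3p was number 8 of the 575 known names by reads. Counted by family number, with let-7 and miR-7 together, miR-184 was number 9 of 139. It held 2.34% of all reads of known miRNAs (2.33 to 2.35), or 1 read in 43. The median known name had 286 reads, so omy-miR-184-3p was 630 times above it. omy-miR-143-3p, the most abundant name and of a family known from smooth muscle, had 12.0 times as many reads. The 8 most abundant names held 54.8% of the reads. Taken alone, the C-ending form was number 12 and the U-ending form number 16 among the 1059 known sequences, so either would be an abundant sequence without the other. The 2 rare names stood at 310 (omy-mir-184-2-5p) and 383 (omy-mir-184-3p).

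The 3 names next above omy-miR-184-3p were omy-let-7f-5p with 222418 reads, omy-miR-10b-5p with 216189 and omy-miR-22a-3p with 194666. The miR-10 family lies in the Hox gene clusters. The 3 next below were omy-let-7e-5p with 173224, omy-miR-451-5p with 170238 and omy-miR-21-5p with 164138. miR-451 is a miRNA of red blood cells. Summed over all names of the family, miR-21 stood above miR-184, with 212715 reads against 180330. The Poisson interval of omy-miR-184-3p did not overlap that of omy-miR-22a-3p (193802 to 195533) or omy-let-7e-5p (172409 to 174042), while the ratio to these neighbours was small, at 1.08 and 0.962 of the reads of omy-miR-184-3p. How far these levels vary between libraries is not known from these counts, so the order among such close neighbours is that of this table only.

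**Figure D2:**
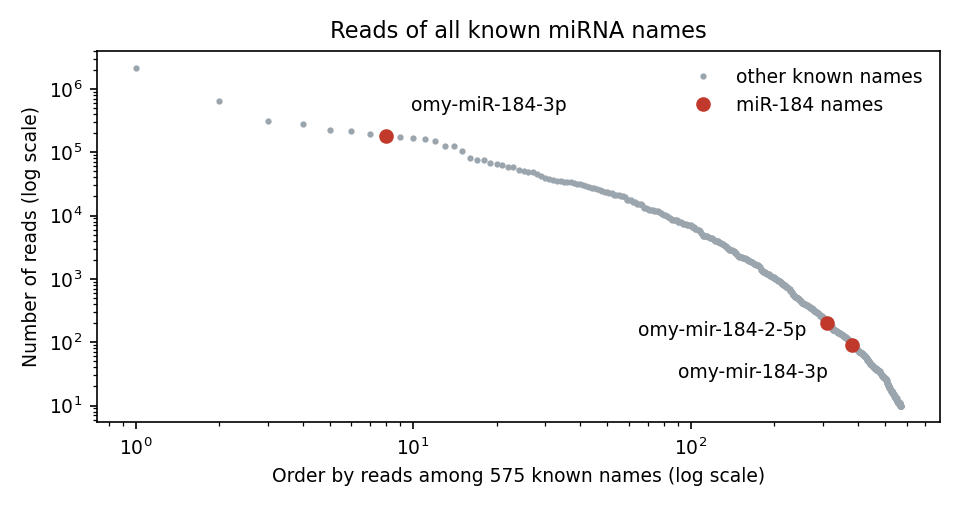
Number of reads of each of the 575 known names against its order by reads, both on log scales, with the miR-184 names in red. omy-miR-184-3p lies at 8 with 180038 reads, and omy-mir-184-2-5p and omy-mir-184-3p lie at 310 and 383, on the steep part of the curve.

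Each form of omy-miR-184-3p was listed at a hairpin of its own, and both hairpins overlapped on the minus strand of chr_1. The C-ending form lay at chr_1:3950025-3950105, a hairpin of 81 nt, and the U-ending form at chr_1:3949972-3950066, a hairpin of 95 nt. The sources used here do not name the build of the trout genome behind these positions, and no annotation of that build was used, so whether a gene, exon or intron lies there was not examined. The hairpins shared 42 nt, from 3950025 to 3950066, which is 51.9% of the hairpin of the C-ending form and 44.2% of that of the U-ending form. Read along the minus strand, the shared bases are the 3′ part of the first hairpin and the 5′ part of the second. They are long enough to hold a 22-nt miRNA. A miRNA within the shared bases would lie in the 5′ part of the hairpin of the U-ending form, although that form is named 3p. The other 53 bases of that hairpin, its 3′ part, are also long enough. A miRNA there would fit the 3p name. Whether both forms come from the same bases, and which last base the genome has, was not examined, because no sequence of this genome was used.

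The 5p sequence was listed at the hairpin of the C-ending form only, and the 15-nt sequence had no genome position. No other known or predicted miRNA was listed within 10000 bases of the hairpins. The nearest on the same chromosome name was omy-miR-7a-7-3p, 2004286 bases away with 17 reads, so miR-184 was not in a cluster in these tables. Of the 455 known names with a genome position, 36 had sequences at overlapping but unequal hairpins. Among their 47 overlapping hairpin pairs, that of miR-184 had the sixth smallest overlap as a share of the shorter hairpin. The median listed hairpin was 77 nt over 467 hairpins.

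**Figure D3:**
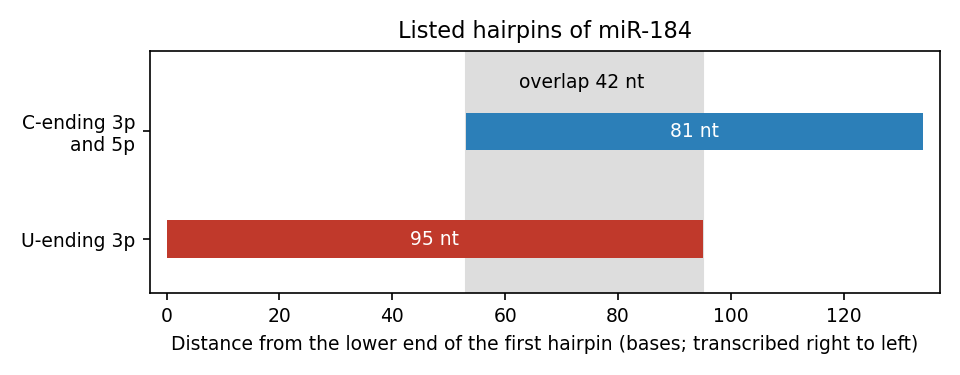
Listed hairpins of miR-184 drawn to scale, as distance in bases from the lower end of the hairpin of the U-ending form, with the overlap shaded. The hairpin of the C-ending form and the 5p sequence (81 nt) and that of the U-ending form (95 nt) share 42 nt.

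The listed forms of omy-miR-184-3p differed at the last base only. The U-ending form held 41.4% of the reads of the name (41.2 to 41.6) and the C-ending form 58.6%. Among known miRNAs, 19 pairs of sequences under the same study number had the same length and differed only in the last base. omy-miR-184-3p was the largest of them by reads. Its minor share was number 3 of 19, where the median was 15.04%, and number 2 of the 10 pairs with at least 1000 reads, where the median was 3.17%. Of the 19 pairs, 8 ended in C and U. Both sequences had the same hairpin in 10 pairs, and in 4, that of miR-184 included, they were listed at different hairpins on the same chromosome name.

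The pairs nearest in minor share among those with at least 1000 reads were omy-miR-222a-3p, omy-miR-30e-3p and omy-miR-725-3p. omy-miR-222a-3p, of a family known from blood vessels, had 2577 of 6191 reads in its minor form, or 41.6% (40.4 to 42.9), an interval that covers the share of omy-miR-184-3p. Its sequences ended in U and G and had the same hairpin, unlike those of omy-miR-184-3p. omy-miR-30e-3p ended in C or U, as omy-miR-184-3p did, and had 36.8% (36.0 to 37.5), below the interval of omy-miR-184-3p. omy-miR-725-3p had 5.89% (4.57 to 7.46). omy-miR-21-5p, closest to omy-miR-184-3p in reads of the pair with 163828, had 2.14% (2.07 to 2.21), far lower at like depth. Its sequences ended in C and A and were not both listed on the same chromosome name, unlike those of omy-miR-184-3p.

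**Figure D4:**
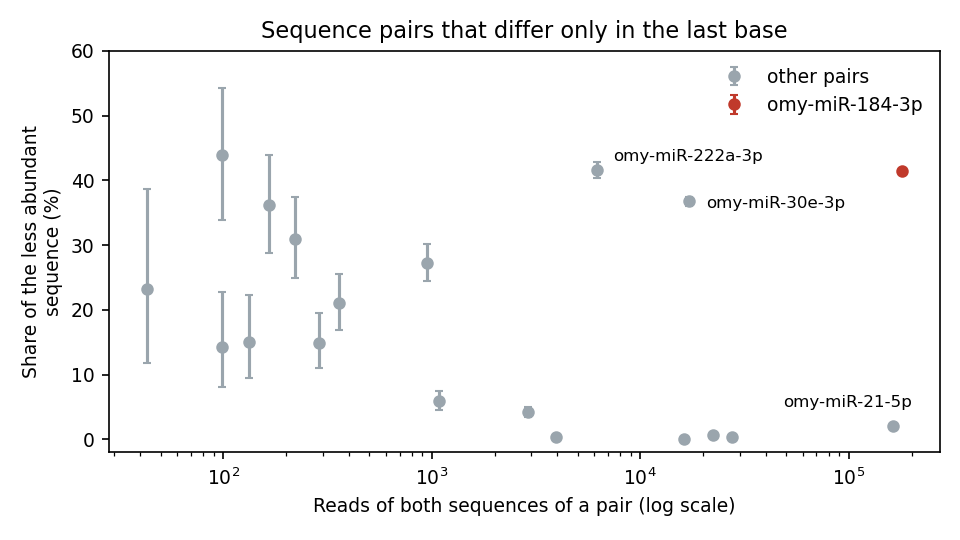
Share of the less abundant sequence in each of the 19 pairs that differ only in the last base, against the reads of the pair on a log scale, with Clopper-Pearson intervals at 95% as bars. omy-miR-184-3p lies at 41.4% with 180038 reads, near omy-miR-222a-3p at 41.6% and far above omy-miR-21-5p at 2.14%.

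No other length and no other start of omy-miR-184-3p was listed. Of the 20 most abundant names, 7 were listed at 1 length only and 15 with 1 seed only, and omy-miR-184-3p was in both groups. It had 2 sequences, which is the median of these 20 names, whose numbers ran from 1 to 16, the highest in omy-let-7a-5p. Its main sequence held 58.6% of its reads, where the median of the 20 was 73.4% and 7 names were lower. omy-miR-10b-5p and omy-miR-22a-3p, its neighbours above, each had a single sequence, while omy-miR-451-5p below it had 5 sequences of 5 lengths. Sequences with fewer than 10 reads are not in the table, so rarer forms may be missing for any name. Whether reads of other lengths or ends were merged into a listed sequence was not examined.

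The 3p arm dominated. All 3p sequences had 180130 reads against 200 of the 5p sequence, 901 reads of 3p per read of 5p, and the 3p share was 99.89% (99.87 to 99.90). Arms were taken from the names and families from their number, so let-7 and miR-7 were counted together. Of 104 families with reads on both arms, 48 were mostly 3p, and the median share of the major arm, whichever it was, was 94.7%. Families listed on a single arm were left out of this set and of the ranks that follow. Because rare sequences are not listed, some of those families may be more one-sided than miR-184. miR-25, for example, had 30633 reads under omy-miR-25-3p and no 5p name. By 3p share miR-184 was number 2 of 104, after miR-143 with 99.97% and 2869 reads of 3p per read of 5p. miR-375, known from pancreatic islets, followed with 378 per read and miR-148 with 346. By the share of the major arm, whether 3p or 5p, miR-184 was number 7. Against the C-ending form alone, which shares its hairpin, the 5p sequence had 1 read per 528.

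**Figure D5:**
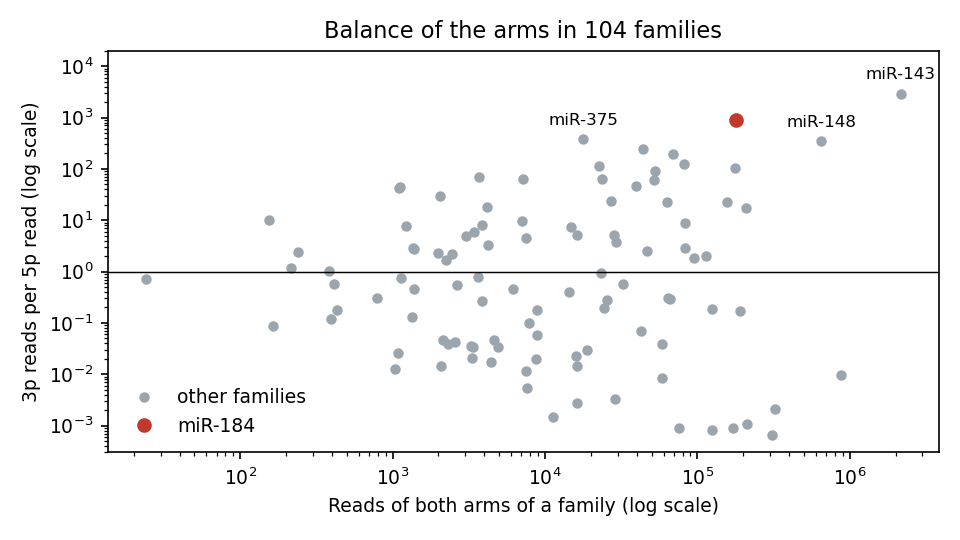
Reads of 3p per read of 5p in each of 104 families with both arms, against the reads of both arms, both on log scales, with a line at equal arms. miR-184 lies at 901 reads of 3p per read of 5p, between miR-143 at 2869 and miR-375 at 378.

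The listed 5p sequence could pair with omy-miR-184-3p over most of its length. Folded together by energy, the 5p sequence formed 16 base pairs with the C-ending form at -20.8 kcal/mol, with a longest run of 8 pairs. These 8 are the first bases of the 5p sequence, ccuuauca, against the stretch ugauaagg at bases 13 to 20 of omy-miR-184-3p. Pairs lay between bases 1 and 19 of the 5p sequence and bases 2 and 20 of the 3p form. The last 2 bases of the 3p form and the last 4 of the 5p sequence were free. The U-ending form gave the same 16 pairs and the same energy, since base 22, where the forms differ, was unpaired.

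The 15-nt sequence named omy-mir-184-3p was unlike the other members. At the best ungapped offset it had 6 identical bases over its 15 nt with the C-ending form, while the U-ending form had 21 of 22. It shared no seed with them and made up 0.0511% of the 3p reads. Its length was the lower limit that the authors kept, and 55 of the 59 known sequences of 15 nt had no genome position. It was 1 of these 55, and its 92 reads equalled their median. Of any length, 230 known sequences had no position. Names written with mir held 239 sequences, of which 40.2% had a genome position, against 89.4% of the 820 sequences named with miR or let. The 5p name, omy-mir-184-2-5p, is also written with mir and does have a position.

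The seed GGACGGA of omy-miR-184-3p was found in no other name. Among the 1414 other known and predicted sequences, 0 had it at bases 2 to 8, 0 held it at any position and 0 shared bases 2 to 7. No other sequence had more than 13 bases identical to the C-ending form at any ungapped offset. The seeds of the 5p sequence and of the 15-nt sequence were likewise at bases 2 to 8 of 0 other sequences. At any position, however, 8 other sequences held the 5p seed and 1 held that of the 15-nt sequence. Both abundant forms began with U, as did 82.7% of all reads of known miRNAs. C was the last base of 24.6% of all those reads and U that of 60.5%.

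The list of miRNAs known from the eye epithelium was chosen with earlier results known and includes miR-184 itself. Most of the reads of that list were therefore those of miR-184, and whether they come from such tissue was not tested. The list of miR-184, miR-204, miR-205, miR-211 and miR-31 had 217631 reads in 14 names, and omy-miR-184-3p was 82.7% of them. miR-205, of stratified epithelia, had 28626 reads and miR-204, of the lens and pigmented epithelium, 8675. miR-184 was 6.30 times above miR-205 and 20.8 times above miR-204. No known name of miR-211 or miR-31 was found in this table. The miRNAs of sensory and neural cells had 333427 reads, led by omy-miR-182-5p with 125310, and all 5 families of that list were found. Their reads were uneven, with 125412 for miR-182, 124055 for miR-9 and 75432 for miR-183, but 7493 for miR-124 and 1035 for miR-96.

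The lists for gonad and early embryo, for muscle and for red blood cells had reads of the same order as miR-184. The liver list had far fewer. The list for gonad and early embryo, miR-202 and miR-430, had 337793 reads, a share of 4.40%. omy-miR-202-5p, a gonad miRNA, was 91.5% of it and 1.72 times above omy-miR-184-3p. The miR-430 family, which clears maternal mRNA in the early zebrafish embryo, had 28423 reads, and miR-184 was 6.34 times above it. The muscle list, miR-1, miR-133 and miR-206, had 416773 reads or 5.42%. The red blood cell list had 170393 or 2.22%, nearly all omy-miR-451-5p with 170238, while no known name of miR-144 was found. The liver miRNA miR-122 had 4893 reads, and miR-184 was 36.9 times above it. The blood and muscle lists thus had 0.946 and 2.31 times the reads of omy-miR-184-3p, and the part that tissue other than the egg has in the reads of miR-184 was not tested.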

How the data were processed

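Small RNA of eggs of the 3 ages was sequenced by the authors on an Illumina GAIIx. The deposited counts are reads per unique sequence. The authors removed poor, rare and adapter sequences together with those matching mRNA, Rfam or Repbase, searched miRBase by BLAST with the remainder under limits on mismatches and E-value, and predicted miRNAs where RNAfold gave a hairpin around the genomic position. The sources used here do not name the genome build.

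Spaces were removed from names, and counts were summed by name, study number, family number and arm. The miRNAs named are the members, the 3 names next above and below in reads, names sharing a seed or lying within 10000 bases, the 3 nearest pairs and families with at least 1000 reads, and the most abundant name of each list. Further names mark the extremes of a comparison and were chosen after their values were seen. The members, lists and rules were chosen with earlier results of these data known. Duplexes were computed with ViennaRNA 2.7.2, and intervals with SciPy 1.17.1 under Python 3.11.15, pandas 2.3.3, numpy 2.4.6 and matplotlib 3.10.9. Intervals and sequence comparisons were tested on simulated data. Alternatives changed the names, sequences or denominators counted. No test between ages was run, because no column gives a library.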

Additional observations from a re-analysis of the deposited data

How the results depend on the processing

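The deposited counts give no library, so depth per age and replicate error set no limit that could be measured here, and counting error is small for the abundant forms. Of 15 alternative ways of counting, 6 left a share within its counting interval, a number of reads within 1.5 times or a rank as it was, and 9 did not. Counting only the most abundant sequence gave 105511 reads of omy-miR-184-3p, against 180038, because the U-ending form is then left out. Ranked as single sequences, with every name split into its sequences, its C-ending form was 12 of 1059, against 8 of 575 names. The share of omy-miR-184-3p was 2.25% with predicted reads in the denominator, 2.45% with known sequences of 20 to 24 nt only, 2.39% with those that have a genome position and 3.26% without omy-miR-143-3p, against 2.34%, which follows from the smaller or larger denominators. The 3p share was 99.81% both with the most abundant sequence of each arm and with the sequences at the hairpin of the 5p sequence, against 99.89%, since both settings drop the U-ending form. The minor share of the end pair ranked 2 of 10 pairs with at least 1000 reads, against 3 of 19. No paired analysis was possible because the reads are given for no single library.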
